A study of Mus musculus with 8 samples.

Results

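Lysosomal hydrolases and membrane proteins were followed as a set of 41 genes: 10 proteases, 13 glycosidases and sulfatases, 7 lipid enzymes and their cofactors, and 11 membrane proteins. The genes were chosen by name from what is known of the lysosome, with earlier results of these data known. They were found on the array by their platform symbol, old or current. Of the 41 genes, 39 had a probe set that names a single gene, out of 17097 genes so named on the array. Neu1 and Cd63 were not matched and were not analysed here. The brightest probe set over all 8 arrays stood for each gene. Of the 39 genes, 36 were bright enough to be tested, and those 36 lay above the filter on all 8 arrays, so that none entered the test through one genotype alone. Ctsh, Lgmn and Arsb were too dim to be tested.

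The samples were mouse CD4+CD25+ cells, sorted as regulatory T cells, which hold immune responses in check, from spleen and peripheral lymph nodes. The RaptorKO group (4 arrays) came from CD4(cre)Raptor(fl/fl) mice and the WT group (4 arrays) from wild-type mice, all on the C57Bl/6J background. Rptor encodes Raptor, the scaffold of the kinase complex mTORC1, and the comparison asks which transcripts differ when it is deleted. The Cd4 promoter drives Cre in the whole T cell lineage, so the cells came from mice whose other T cells also carry the deletion, and CD25 marks recently activated conventional T cells as well as regulatory T cells. The cells were taken straight after sorting, without treatment. The age of the mice and the number pooled per sample are not given in the sources used here.

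The lysosome is the acidic compartment in which proteins, glycans and lipids delivered by endocytosis or autophagy are broken down. Its soluble hydrolases are made in the endoplasmic reticulum and carried there by mannose 6-phosphate or other receptors, and its membrane proteins protect the limiting membrane and move ions and breakdown products across it. mTORC1 is recruited to the lysosomal surface when amino acids are plentiful, and there it phosphorylates the transcription factors TFEB and TFE3. In that state they stay in the cytoplasm. Unphosphorylated, they enter the nucleus and bind a palindrome with the core CACGTG near the start sites of many lysosomal genes.

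The values are log2 intensities, and array medians lay between 5.21 and 5.29. All 7 markers of regulatory T cells listed were tested, and their mean was 10.67 ± 0.06 in RaptorKO and 10.69 ± 0.06 in WT (SD, n = 4 each). Foxp3 lay between 10.96 and 11.04 in RaptorKO and between 10.79 and 10.96 in WT. None of the 7 was called in limma, although 3 had values that did not overlap between genotypes. Ctla4 (-0.32, adjusted p = 0.169) and Cd4 (-0.22, adjusted p = 0.362) had lower values on every RaptorKO array than on any WT array. Ikzf2 (0.21, adjusted p = 0.342) had higher values on every RaptorKO array than on any WT array. Rptor itself lay between 6.47 and 6.95 in RaptorKO and between 6.75 and 7.03 in WT (change -0.23, SE 0.12, adjusted p = 0.491). The labels do not place its probe set inside or outside the deleted exons, and the level is therefore no check of the genotype. The arrays of replicates 3 and 4 stood apart from those of replicates 1 and 2 in both genotypes. Xist, the RNA of the inactive X chromosome, lay between 5.28 and 5.62 in RaptorKO replicates 3 and 4 and at 11.18 and 11.15 in RaptorKO replicates 1 and 2. In WT it was 5.58 and 5.04 in replicates 3 and 4, against 10.90 and 10.88 in replicates 1 and 2. The Y-linked gene Eif2s3y ran the other way, so replicates 3 and 4 of each genotype carried a male and replicates 1 and 2 a female pattern. The labels do not give the sex of the mice.

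Of the 36 genes tested, 5 rose and 1 fell in RaptorKO. Those that rose were the proteases Tpp1 and Ctsl, the glycogen-degrading enzyme Gaa, and the membrane proteins Lamp1 and Clcn6. The mannosidase Man2b1 fell. A gene was called at an adjusted p under 0.05 in limma, adjusted over all 11413 genes tested, of which 1.96% were called, 0.824% higher and 1.14% lower. Among the 36 lysosomal genes the share called was 16.7%. The median change was 0.06, against -0.01 over all genes tested, with 23 genes positive and 13 negative and a range from -0.45 to 0.81. The 4 RaptorKO and the 4 WT values did not overlap for 13 of the 36 genes (36.1%), 10 higher and 3 lower. Over all genes tested, 8.82% had such a gap, 3.73% higher and 5.09% lower. An unadjusted p under 0.05 was reached by 12 higher and 4 lower genes of the 36, and by 5.55% higher and 7.49% lower among all genes. These shares only describe the list, because its genes were chosen with earlier results of these data known.

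Of the 6 genes, Tpp1 alone was called whichever single array was left out. It was the only lysosomal gene called without WT 3. Without RaptorKO 1, WT 1, WT 2 or WT 4 the call held for 2 of the 6, without RaptorKO 2 for 2, without RaptorKO 3 for 3 and without RaptorKO 4 for 4. Scarb2 was gained without RaptorKO 2, and Hexa and Lamp2 without RaptorKO 4.

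**Figure D1:**
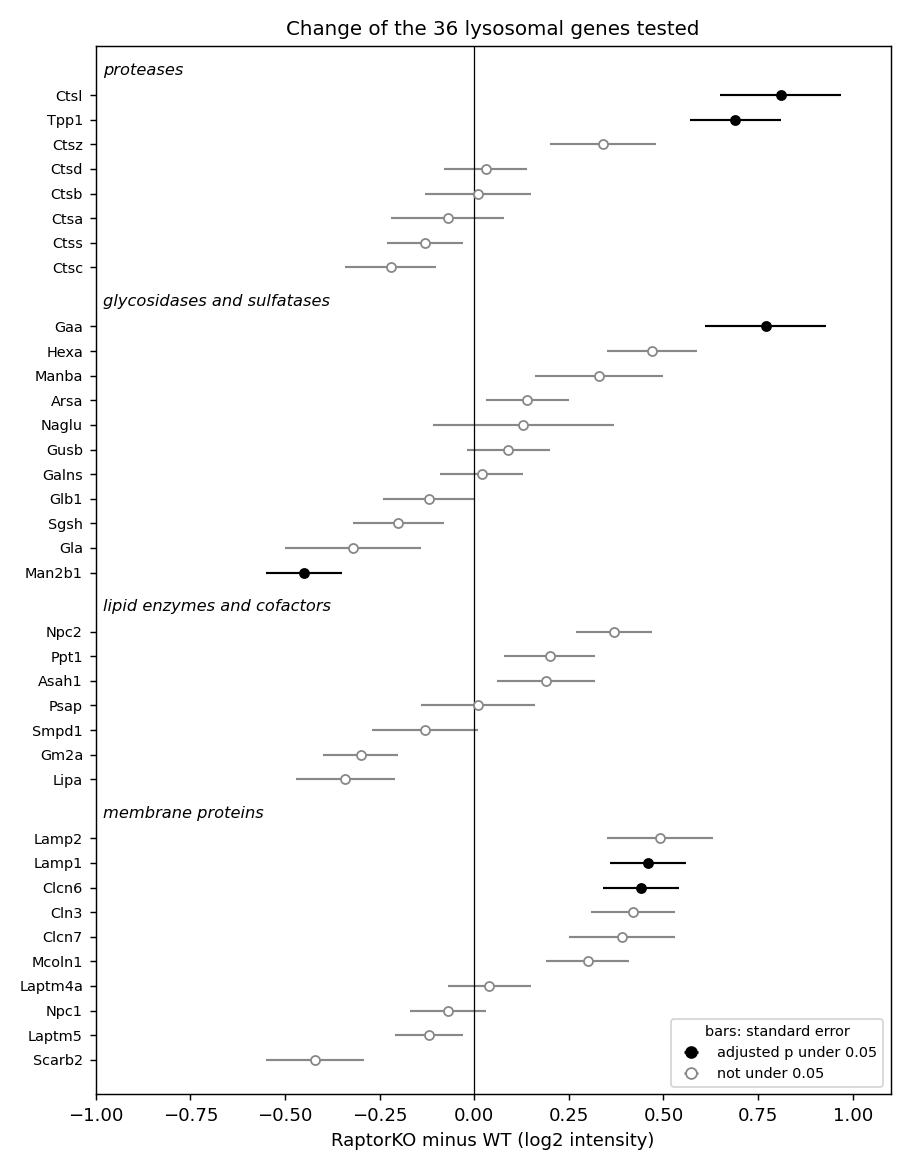
Change of each of the 36 tested lysosomal genes (RaptorKO minus WT, log2 intensity) by role, with the standard error of the limma fit over 4 arrays in each group. Filled points passed the test: Ctsl, Tpp1, Gaa, Lamp1 and Clcn6 lie to the right of 0 and Man2b1 to the left.

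Because TFEB and TFE3 act through the core CACGTG, the promoters of the genes were searched for it. RefSeq promoters (GRCm38.p6, from 250 bases before to 50 bases after an annotated start) were found for 36 of the 41 genes, Neu1 and Cd63 among them. The core, which reads the same on both strands, stood in a promoter of 15 of these 36 genes (41.7%), against 8.09% of the 27025 genes in the table. The longer TCACGTGA, which contains the core, stood in 7 (19.4%, against 1.12% of genes). The core is already known from many lysosomal genes, and the set was chosen by name from the lysosome. These shares therefore only describe the list. Of the 5 genes that rose, Ctsl, Gaa, Lamp1 and Clcn6 held the core, and Tpp1 did not hold these letters in its window. Man2b1, which fell, did not hold them either. The following stretches show the core in capitals in the 4 genes that rose, in Cln3 and Mcoln1, whose values were higher without passing the test, and in Ctsd, which holds TCACGTGA and had nearly equal means in both genotypes. Each reads 5′ to 3′ along the gene's strand.
Ctsl, chr13:64370721-64370770, minus strand: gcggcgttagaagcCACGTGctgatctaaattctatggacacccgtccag
Gaa, chr11:119267793-119267858, plus strand: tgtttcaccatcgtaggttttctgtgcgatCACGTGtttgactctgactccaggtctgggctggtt
Lamp1, chr8:13159070-13159160, plus strand: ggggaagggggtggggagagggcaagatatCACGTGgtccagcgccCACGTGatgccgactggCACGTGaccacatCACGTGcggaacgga
Clcn6, chr4:148038814-148038891, minus strand: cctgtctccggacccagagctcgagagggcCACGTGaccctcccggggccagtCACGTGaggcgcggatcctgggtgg
Cln3, chr7:126583322-126583415, minus strand: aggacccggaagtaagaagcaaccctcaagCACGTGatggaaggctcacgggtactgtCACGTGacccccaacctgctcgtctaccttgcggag
Mcoln1, chr8:3500418-3500509, plus strand: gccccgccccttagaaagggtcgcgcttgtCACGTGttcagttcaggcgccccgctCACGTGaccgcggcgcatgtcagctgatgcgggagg
Ctsd, chr7:142387890-142387955, minus strand: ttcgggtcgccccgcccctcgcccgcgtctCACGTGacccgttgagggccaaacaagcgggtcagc

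Lamp1 held 4 copies of the core, the farthest starting 61 and the nearest 15 bases before the start site. Clcn6 held 2, starting 48 and 25 bases before it, and Mcoln1 held 2, at 71 and 45 bases. In Ctsl the single core lay 236 bases before the start. Among the lysosomal genes tested, the 14 with the core had a median change of 0.22 (10 positive and 4 negative, 4 of them called). The 18 with a promoter and no core had a median of 0.02 (10 positive and 8 negative, 2 called). Over all genes tested, with or without the core, the median was -0.01 and 1.96% were called. Changes of genes with the core outside the set are not given here. The 14 included Gla (-0.32), with 2 copies of TCACGTGA in its promoter, so the letters occurred in genes of either sign. Binding was not measured here, and the part of the motif in the changes was not tested.

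Among the proteases, 2 of 8 tested genes rose and none fell (25% called, against 1.96% of all genes tested). Tpp1 encodes tripeptidyl peptidase 1, which removes tripeptides from the amino terminus of proteins and is lost in a childhood form of neuronal ceroid lipofuscinosis in humans. Its values were 8.89, 9.09, 8.95 and 8.86 in RaptorKO 1 to 4, against 8.37, 7.97, 8.34 and 8.34 in WT 1 to 4. Every RaptorKO array was above every WT array, and the WT arrays other than WT 2 were close to each other. The change was 0.69 (SE 0.12, adjusted p = 0.0102), or 1.61-fold, and it stayed called without any single array (adjusted p between 0.0196 and 0.0311). Averaging its 2 probe sets gave 0.56 (adjusted p = 0.0573).

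Ctsl encodes cathepsin L, a cysteine endopeptidase that also processes the invariant chain in thymic epithelium. It measured 6.96, 7.28, 6.56 and 6.56 in RaptorKO 1 to 4, against 6.25, 5.93, 6.09 and 5.85 in WT 1 to 4. The groups did not overlap, and the gap was wider in the first 2 replicates. The change was 0.81 (SE 0.16, adjusted p = 0.0284), or 1.75-fold, the widest of the 36. The call ended without RaptorKO 1 (0.77, adjusted p = 0.0783), WT 2 (0.78), WT 3 (0.83) or WT 4 (0.75, adjusted p = 0.0961).

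The other proteases did not pass. Ctsz, a carboxypeptidase of the cathepsin family, had 8.78, 8.65, 8.49 and 8.53 in RaptorKO, against 8.21, 8.03, 8.20 and 8.67 in WT. Only WT 4 reached the RaptorKO values, and the change was 0.34 (SE 0.14, adjusted p = 0.316). Of the 2 further Ctsz probe sets, 1 gave 0.05 and 1 gave 0.10. The abundant endopeptidases Ctsb and Ctsd had nearly equal means, with changes of 0.01 (SE 0.14) and 0.03 (SE 0.11). Ctsa, which also shields the galactosidase and neuraminidase complex, differed by -0.07, and Ctss, the endopeptidase of antigen-presenting cells, by -0.13 (SE 0.10). Ctsc, the dipeptidyl peptidase that activates granzymes, differed by -0.22 (SE 0.12, adjusted p = 0.502), with other probe sets at 0.42 and 0.06. The asparaginyl protease Lgmn and the aminopeptidase Ctsh were dim: Lgmn lay above the filter on 0 of 4 RaptorKO and 2 of 4 WT arrays and Ctsh on none, so no change is given for them.

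Among glycosidases and sulfatases, 1 of 11 tested genes rose and 1 fell (18.2% called, against 1.96% of all genes tested). Gaa encodes acid alpha-glucosidase, which degrades glycogen inside the lysosome. It read 5.92, 6.24, 5.89 and 6.47 in RaptorKO 1 to 4, against 5.24, 5.08, 5.45 and 5.67 in WT 1 to 4. The groups were separate, although the lowest RaptorKO and the highest WT array were near each other. The change was 0.77 (SE 0.16, adjusted p = 0.0312), or 1.71-fold, and the array carries 1 probe set for the gene. The call ended without RaptorKO 2 (0.74), RaptorKO 4 (0.66), WT 1 (0.73, adjusted p = 0.104), WT 2 (0.68) or WT 3 (0.80), with adjusted p of at least 0.0587.

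Man2b1 encodes the lysosomal alpha-mannosidase, which trims mannose from the glycans of degraded glycoproteins. Its values were 8.78, 8.87, 8.79 and 8.80 in RaptorKO 1 to 4, against 9.19, 9.09, 9.42 and 9.32 in WT 1 to 4. All RaptorKO arrays were below all WT arrays, and they lay close together (SD 0.04 in RaptorKO and 0.14 in WT). The change was -0.45 (SE 0.10, adjusted p = 0.0465), and WT was 1.36-fold higher. The call held without WT 2 and ended without any other single array, with changes between -0.47 and -0.39 and a highest adjusted p of 0.155 without WT 3.

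Hexa, the alpha subunit of beta-hexosaminidase that cleaves the ganglioside GM2, was 8.61, 8.61, 8.54 and 8.26 in RaptorKO, against 8.07, 8.01, 7.85 and 8.22 in WT. The groups did not overlap, with RaptorKO 4 just above WT 4. The change of 0.47 (SE 0.12, adjusted p = 0.0738) did not pass the test over all arrays, and it passed without RaptorKO 4 (0.55, adjusted p = 0.043). The 8 further tested genes of this role had changes from -0.32 for the galactosidase Gla to 0.33 for the beta-mannosidase Manba, and adjusted p of at least 0.443. The galactosidase Glb1 (-0.12), the glucuronidase Gusb (0.09), the heparan sulfate enzymes Naglu (0.13) and Sgsh (-0.20), and the sulfatases Galns (0.02) and Arsa (0.14) lay between them. Arsb was under the filter on all arrays.

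None of the 7 lipid enzymes and cofactors passed the test in limma, and 3 had an unadjusted p under 0.05, where 13% of all genes tested did. Npc2, the soluble protein that takes cholesterol from internal vesicles to the membrane protein NPC1, was 10.49, 10.67, 10.56 and 10.73 in RaptorKO, against 10.23, 10.18, 10.22 and 10.33 in WT. Every RaptorKO array was higher than every WT array, with a change of 0.37 (SE 0.10, adjusted p = 0.0819). Its other probe sets showed the same gap without overlap, 0.46 (SE 0.11) and 0.31 (SE 0.14). With an intensity trend in the variance Npc2 was called (0.37, adjusted p = 0.00666), as it was after averaging its probe sets (0.38, adjusted p = 0.0402).

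Gm2a, the activator that presents GM2 to hexosaminidase, ran the other way from Hexa. It was 9.05, 9.13, 8.95 and 9.29 in RaptorKO, against 9.45, 9.49, 9.34 and 9.35 in WT, again without overlap. The change was -0.30 (SE 0.10, adjusted p = 0.202), and a further bright probe set gave -0.46 (SE 0.13) without overlap. Lipa, the acid lipase that frees cholesterol and fatty acids from lipoproteins, was 7.94, 8.0, 7.89 and 7.57 in RaptorKO, against 8.27, 7.93, 8.20 and 8.34 in WT. WT 2 fell inside the RaptorKO range, and the change was -0.34 (SE 0.13, adjusted p = 0.252), with all 3 probe sets negative. The thioesterase Ppt1 (0.20), the ceramidase Asah1 (0.19), the saposin precursor Psap (0.01) and the sphingomyelinase Smpd1 (-0.13) had adjusted p of at least 0.547.

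Membrane proteins had the highest median of the 4 roles, 0.35, with 7 of 10 tested genes positive, 2 called higher and none called lower. The share called was 20%, against 1.96% of all genes tested. The 4 RaptorKO and the 4 WT arrays did not overlap for 5 higher and 1 lower gene, Laptm5. That was 60% of the role, against 8.82% of all genes tested, in a role of only 10 tested genes. Lamp1 encodes one of the heavily glycosylated proteins that line the inside of the lysosomal membrane. It was 10.06, 10.26, 10.25 and 9.99 in RaptorKO 1 to 4, against 9.71, 9.58, 9.74 and 9.68 in WT 1 to 4. All RaptorKO arrays were above all WT arrays, and the change was 0.46 (SE 0.10, adjusted p = 0.041), or 1.38-fold. The call held without RaptorKO 4 (adjusted p = 0.0429) and ended without any other single array, with changes between 0.42 and 0.49 and adjusted p up to 0.113 without WT 4.

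Lamp2, its relative that also serves chaperone-mediated autophagy, was 7.68, 7.89, 7.59 and 7.17 in RaptorKO, against 7.08, 6.98, 7.17 and 7.15 in WT. RaptorKO 4 was the lowest of its group and level with WT 3. The change was 0.49 (SE 0.14, adjusted p = 0.126). Further probe sets of Lamp2 gave 0.69 (SE 0.15) and 0.59 (SE 0.21). Averaged over the 3 probe sets, Lamp2 passed (0.59, adjusted p = 0.0136), as it did without RaptorKO 4 (0.62, adjusted p = 0.0271).

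Clcn6 encodes a chloride and proton exchanger of late endosomes. It was 8.24, 8.14, 8.04 and 7.92 in RaptorKO 1 to 4, against 7.68, 7.67, 7.61 and 7.64 in WT 1 to 4. The WT arrays lay within a narrow range below all RaptorKO arrays. The change was 0.44 (SE 0.10, adjusted p = 0.0472), or 1.35-fold, and the dimmer probe set gave 0.60 (SE 0.12), called when every probe set was tested (adjusted p = 0.0489). The call held without RaptorKO 4 (adjusted p = 0.0416) and ended without any other single array (0.39 to 0.45, adjusted p up to 0.146 without WT 3).

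Clcn7, the lysosomal chloride and proton exchanger whose loss causes osteopetrosis, was 7.0, 7.24, 7.18 and 7.67 in RaptorKO, against 6.87, 6.96, 6.99 and 6.72 in WT. RaptorKO 4 stood well above the rest and RaptorKO 1 just above WT 3, so the groups were separate. The change of 0.39 (SE 0.14, adjusted p = 0.231) did not pass, and it was 0.25 without RaptorKO 4. Its other probe sets gave 0.21 and 0.05, and the average of the 3 was 0.21. Mcoln1, the calcium release channel of the lysosome, was 7.29, 7.54, 7.24 and 7.45 in RaptorKO, against 7.15, 6.85, 7.16 and 7.14 in WT. These groups were separate as well (0.30, SE 0.11, adjusted p = 0.249).

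Cln3, a membrane protein lost in juvenile neuronal ceroid lipofuscinosis in humans, was 7.28, 7.32, 7.04 and 7.42 in RaptorKO, against 6.79, 6.81, 6.79 and 7.0 in WT. WT 4 came close to RaptorKO 3, and the change was 0.42 (SE 0.11, adjusted p = 0.0836). Its dimmer probe set gave 0.05. Scarb2, which carries glucocerebrosidase to the lysosome, was 7.41, 8.0, 7.65 and 7.52 in RaptorKO, against 8.13, 8.15, 8.02 and 7.96 in WT. RaptorKO 2 lay inside the WT range, and the change was -0.42 (SE 0.13, adjusted p = 0.146). Without that array it was -0.54 and passed (adjusted p = 0.0281), whereas the other Scarb2 probe set gave 0.08 (SE 0.11). The cholesterol exporter Npc1 (-0.07), and Laptm4a (0.04) and Laptm5 (-0.12), small proteins with several membrane spans, had adjusted p of at least 0.679.

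**Figure D2:**
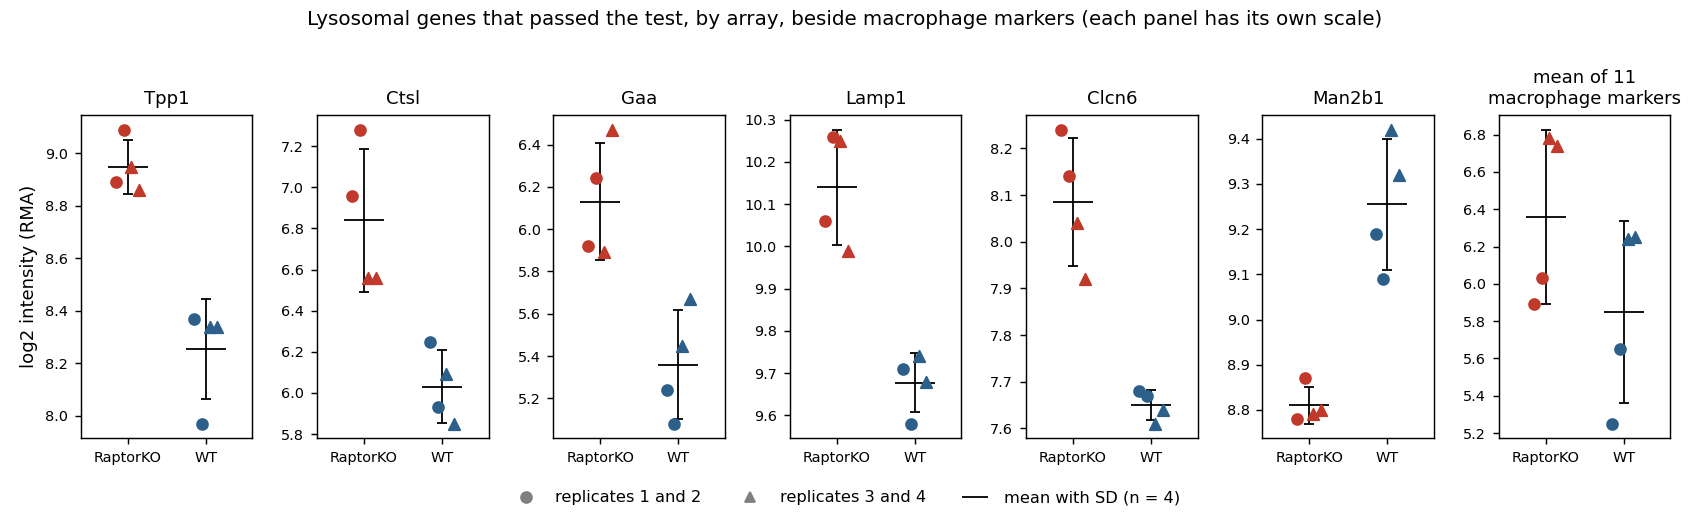
log2 intensity on each array for the 6 lysosomal genes that passed the test and, on the right, the mean of 11 macrophage markers; RaptorKO stands left of WT, bars give the mean and SD (n = 4), and each panel has its own scale. The genotypes are separate in the 6 gene panels, while in the marker panel replicates 3 and 4 lie above replicates 1 and 2 in both genotypes. Within each of these sets, both RaptorKO marker means lie above both WT means.

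Of the 36 genes, 19 had more than 1 probe set above the filter, and in 14 of these all such probe sets had a change of the same sign. Lamp2, Npc2, Clcn6 and Lipa were among the 14. Ctsb, Ctsc, Gusb, Ppt1 and Scarb2 had probe sets of either sign. When every probe set was tested separately, 2 member probe sets were called, the brighter one of Tpp1 and the dimmer one of Clcn6, and Ctsl had an adjusted p of 0.0513.

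**Figure D3:**
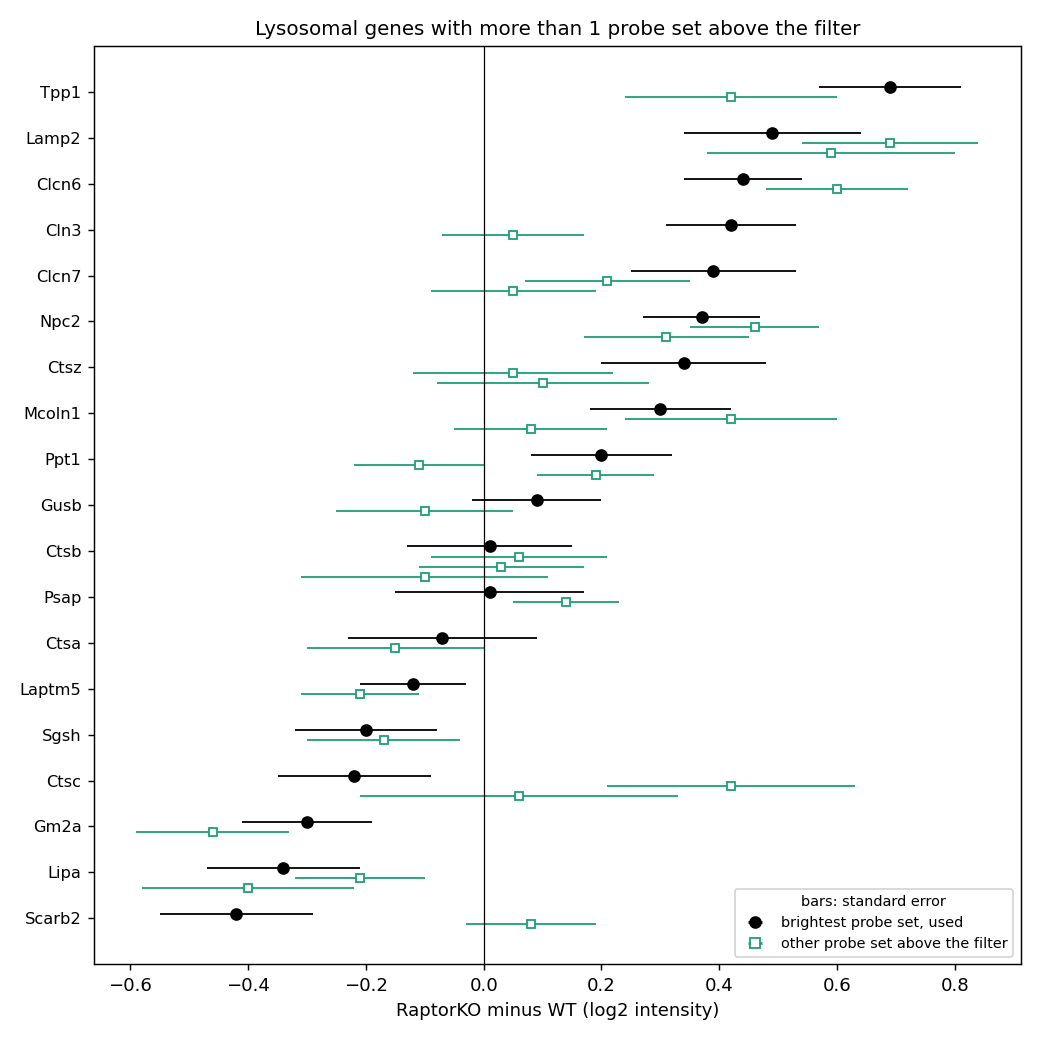
Change of every probe set above the filter (RaptorKO minus WT, log2 intensity, with its standard error) for the 19 lysosomal genes with more than 1. Filled circles are the brightest probe sets, and open squares the others. The 3 probe sets of Lamp2 and of Npc2 all lie to the right of 0, and the 2 of Scarb2 lie on either side.

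Other genes of the lysosome and its supply had medians near 0. Of 46 further lysosomal genes, 37 were tested and 0 were called in limma, against 1.96% of all genes tested. With so few genes and so low a share, a count of 0 says little. Of the 37, 7 higher and 3 lower had an unadjusted p under 0.05. Among all genes tested, 5.55% were higher and 7.49% lower at that level. The share of the 37 that was higher therefore lay above that of all genes, and the share that was lower lay near it. The median change of the 37 genes was 0.00. Those with the smallest p were Litaf, a membrane adaptor of late endosomes (0.49, adjusted p = 0.0514), and the carboxypeptidase Scpep1 (0.72, adjusted p = 0.0993). Of 22 genes for delivery to lysosomes, such as the mannose 6-phosphate receptor M6pr, the tagging enzyme Gnptab and the tethering complex subunits Vps11 and Vps41, 18 were tested. In limma 0 of them were called, against 1.96% of all genes tested, and 0 had an unadjusted p under 0.05, against 13%. Their changes ranged from -0.17 for the adaptor subunit Ap3b1 to 0.17 for Nagpa, which uncovers the mannose 6-phosphate tag, and the median was 0.04.

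The 3 cystatins listed, inhibitors of cathepsins, all had a positive change. Cst7, cystatin F, which restrains cathepsin C in lymphocytes, rose. It was 9.15, 9.34, 9.32 and 9.23 in RaptorKO 1 to 4, against 8.29, 8.45, 8.82 and 8.74 in WT 1 to 4. All RaptorKO arrays were higher (0.69, SE 0.13, adjusted p = 0.0184). Cstb, the cytosolic cystatin B, differed by 0.47 (SE 0.11, adjusted p = 0.0527) without overlap, and the secreted Cst3 by 0.19.

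Neither of the tested transcription factors known to bind the core motif passed. Tfeb was 5.85, 6.38, 6.05 and 6.51 in RaptorKO, against 6.38, 6.50, 6.32 and 6.17 in WT (-0.15, SE 0.15, adjusted p = 0.77). Tfe3 was 6.38, 6.74, 6.15 and 6.46 in RaptorKO, against 6.71, 6.55, 6.79 and 6.71 in WT (-0.25, SE 0.13, adjusted p = 0.437). Both sets of values overlapped between genotypes. Mitf and Tfec, the other members of the family, were under the filter on every array. Where these proteins lay in the cell was not measured.

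Lysosomal genes are strongly expressed in macrophages, so markers of other cell types were read on the same arrays. All 11 tested of 16 macrophage and monocyte markers had a positive change, with a median of 0.49, and 0 were called in limma (4 had an unadjusted p under 0.05). Their mean per array ran from 5.89 to 6.78 in RaptorKO and from 5.25 to 6.25 in WT. Among the brighter ones, the receptor adaptor Tyrobp averaged 7.55 ± 0.50 in RaptorKO and 6.96 ± 0.35 in WT, and the complement gene C1qc 6.92 ± 0.83 in RaptorKO and 6.48 ± 0.80 in WT (SD, n = 4 each). The lysozyme gene Lyz2 averaged 6.18 ± 0.16 in RaptorKO and 5.57 ± 0.52 in WT. Mpeg1 averaged 6.66 ± 0.59 in RaptorKO and 5.71 ± 0.96 in WT. Its change of 0.95 (SE 0.41, adjusted p = 0.351) was the widest of the 11 and wider than that of any lysosomal gene tested. Adgre1 and Itgam were under the filter on all 8 arrays. In bulk RNA, fewer cells of a type and less RNA per cell cannot be told apart.

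The marker mean was 0.51 higher in RaptorKO than in WT, and it differed more between sets of replicates. In WT it was 0.79 higher in replicates 3 and 4 than in replicates 1 and 2, and in RaptorKO 0.80 higher. Within each set both RaptorKO arrays lay above both WT arrays. In replicates 1 and 2 the means were 5.89 and 6.03 in RaptorKO, against 5.25 and 5.65 in WT. In replicates 3 and 4 they were 6.78 and 6.74 in RaptorKO, against 6.24 and 6.25 in WT. Across the same sets the 6 called genes differed in WT by 0.18 for Tpp1, -0.12 for Ctsl, 0.07 for Lamp1, -0.05 for Clcn6, 0.41 for Gaa and 0.23 for Man2b1. In RaptorKO the differences were -0.09, -0.56, -0.04, -0.21, 0.10 and -0.03 in the same order. The sets also differ in the sex-linked pattern. With the marker mean as a covariate the change was 1.03 for Ctsl (adjusted p = 0.0093), 0.69 for Tpp1 (adjusted p = 0.0416), 0.52 for Clcn6 (adjusted p = 0.0505), 0.46 for Lamp1 (adjusted p = 0.125), 0.63 for Gaa (adjusted p = 0.138) and -0.50 for Man2b1 (adjusted p = 0.078). Ctsl and Tpp1 kept the call in that fit, and the median of the 36 genes was 0.01. The part of macrophage RNA in the lysosomal changes was not tested.

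Markers of other lymphocytes also differed. The mean of Cd8a and Cd8b1 ran from 6.08 to 7.03 in RaptorKO and from 6.32 to 8.07 in WT. Cd8a changed by -1.03 (SE 0.44, adjusted p = 0.341) and Cd8b1 by -0.77 (SE 0.21, adjusted p = 0.103) in limma. Both overlapped between genotypes, and the change of Cd8a was wider than that of any lysosomal gene tested. The 3 tested markers of conventional CD4 T cells had changes between -0.33 and -0.16. The 6 tested of 10 B cell markers had a median of 0.20, with Ebf1 and Blnk under the filter on all arrays. The 3 tested of 5 natural killer cell markers had a median of 0.28, with Ncr1 and Klrb1c under the filter on all arrays. One of the 3, Nkg7, a granule protein gene of cytotoxic cells, had 8.07, 8.64, 8.15 and 8.21 in RaptorKO, against 6.69, 8.04, 7.62 and 7.25 in WT. Those groups did not overlap, and its change of 0.87 (SE 0.24, adjusted p = 0.106) was wider than that of any lysosomal gene tested. The 2 tested of 7 dendritic cell markers had a median of 0.14, and Flt3 and Xcr1 were under the filter on all arrays. None of these was called. The 3 tested granulocyte markers had changes between 0.09 and 0.19, and the single tested erythroid marker differed by -0.08. Their part in the lysosomal changes was not tested.

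The lysosomal genes had lower changes in the last 2 replicates of each genotype. Over the 36 genes the median change in replicates 3 and 4 was -0.04 and in replicates 1 and 2 it was 0.18, against -0.04 and 0.02 over all genes tested. Of the 36, 17 were positive within replicates 3 and 4 and 26 within replicates 1 and 2 (47.2% and 72.2%, against 43.3% and 53.6% of all genes). The difference between the sets was negative for 30 of the 36 genes (83.3%, against 61.1% of all genes). None of these differences passed the limma interaction test (lowest adjusted p = 0.334). Ctsa, Glb1, Manba, Naglu and Lamp2 had an unadjusted p under 0.05, or 13.9% of the set, against 11.4% of all genes.

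The 6 called genes kept their sign in both sets. Tpp1 changed by 0.56 in replicates 3 and 4 and by 0.82 in replicates 1 and 2, Ctsl by 0.59 and 1.03, and Gaa by 0.62 and 0.93. Lamp1 gave 0.41 and 0.52, Clcn6 0.36 and 0.52, and Man2b1 -0.57 and -0.32 in the same order. Within either set alone, 2 arrays against 2, 0 lysosomal genes were called. Npc2, with 0.37 and 0.38, and Scarb2, with -0.41 and -0.44, had nearly the same value in both.

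**Figure D4:**
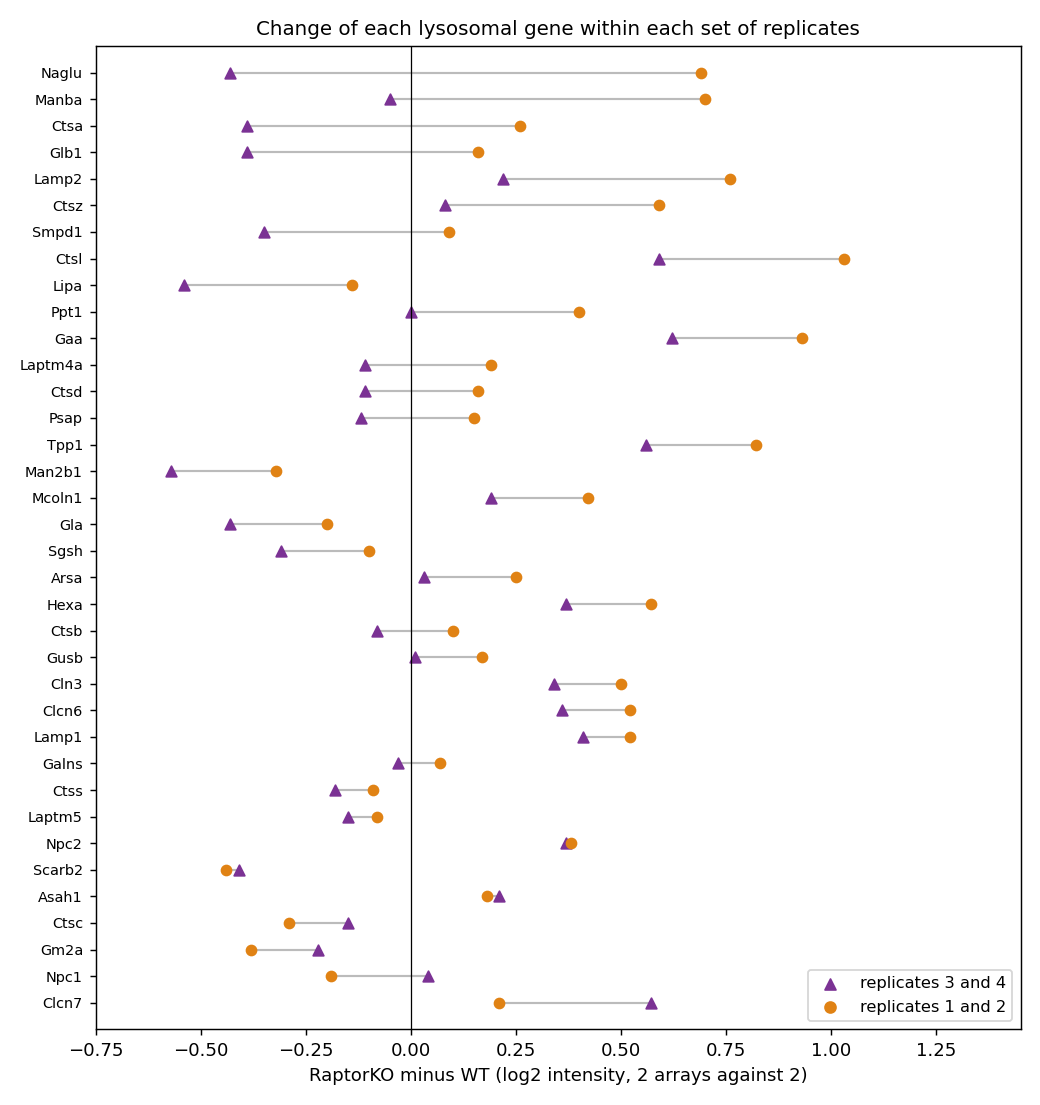
Change of each of the 36 lysosomal genes (RaptorKO minus WT, log2 intensity) within replicates 3 and 4 (triangles) and within replicates 1 and 2 (circles), ordered by the difference between the sets. The triangle lies left of the circle for 30 of the 36 genes, from Naglu at the top (-0.43 and 0.69) downwards.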

How the data were processed

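The deposited values are log2 intensities per probe set, which the authors made with RMA according to the submitters' processing notes. Its version and settings are not given in the sources used here. Labelled cDNA was made from total RNA with a NuGEN amplification kit, per the labels' protocols. RMA as usually run removes differences in total signal between arrays, so a change shared by all transcripts would not be seen. The number of arrays limits the precision.

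Gene names came from the platform annotation, updated through Entrez identifiers with a RefSeq table (28689 of 28898 single-gene probe sets matched; 551 probe sets listing several genes were not named). The brightest probe set stood for each gene and entered the test when at least 4 arrays had it above their 40th percentile (4.69 to 4.81). The genotypes were compared in limma 3.58.1, under R 4.3.3 (lmFit, eBayes, no covariates), with Benjamini-Hochberg adjustment over 11413 genes. Changes are RaptorKO minus WT, and SE is limma's standard error. The fit was run on simulated data with independent noise and no difference between replicate sets, which checks the code only. Values on every array are given for genes of the set that were called, had an unadjusted p under 0.05 or were among the 3 smallest p of their role; further lists name their called genes, or the 2 with the smallest p. Ctsd, the stretches of sequence printed, Gla beside them, and the cell type markers named singly were chosen after their values were seen. The members and lists were chosen with earlier results of these data known. Whether each sample is a separate mouse is not stated, and the p-values reflect only the variation among these samples, possibly technical. Group and replicate number came from the sample titles. Plots came from matplotlib 3.10.9 (Python 3.11.15).

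Alternatives tried were blocking on the replicate number, averaging a gene's probe sets, testing every probe set, dropping the filter or raising it to the 60th percentile, quantile normalization, centring on the median or the 75th percentile, an intensity trend, robust variance, array weights, a term for replicates 3 and 4 against 1 and 2, either set alone, macrophage markers as a covariate, and leaving out each array.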

Additional observations from a re-analysis of the deposited data

Results flagged for a closer look

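For 3 lysosomal genes, both RaptorKO arrays lay on one side of both WT arrays in replicates 3 and 4 and on the opposite side in replicates 1 and 2. That is 8.33% of the 36 tested, against 8.88% of all genes tested. Naglu, which removes N-acetylglucosamine from heparan sulfate, was 5.59 and 5.28 in RaptorKO 3 and 4, against 5.95 and 5.78 in WT 3 and 4, and 6.48 and 6.40 in RaptorKO 1 and 2, against 5.95 and 5.55 in WT 1 and 2. Its change differed between the sets by -1.12 (limma interaction, adjusted p = 0.334). The difference was -0.55 for Glb1 (adjusted p = 0.37) and -0.19 for Ctsb (adjusted p = 0.653), so none passed that test.

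Single arrays stood apart from the other 3 of their group in 5 of 84 groups of 4 compared, a share close to the 1 in 20 that chance gives. They were Ppt1 in RaptorKO 2 (9.27), Tpp1 in WT 2 (7.97), Mcoln1 in WT 2 (6.85), Cln3 in WT 4 (7.0) and Laptm5 in WT 3 (11.83).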

How the results depend on the processing

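The number of called lysosomal genes was 6 and lay between 4 and 8 without a filter, with the filter at the 60th percentile, and with quantile normalization, 75th percentile centring, averaged probe sets, an intensity trend, robust variance, array weights and a term for the replicate set. It was 3 with median centring, 2 with macrophage markers as a covariate, 1 with every probe set tested if only each gene's brightest is counted (2 if any is), and 0 within replicates 3 and 4 or replicates 1 and 2 alone. Leaving out single arrays gave between 1 and 6. Over all genes 224 were called, against 370 with an intensity trend, 85 within replicates 3 and 4, 9 within replicates 1 and 2, and between 98 (without WT 4) and 251 when single arrays were left out. The median change of the set, 0.06, lay between 0.02 and 0.12 when single arrays were left out. It was 0.01 with macrophage markers as a covariate, and came to -0.04 in replicates 3 and 4 alone and to 0.18 in replicates 1 and 2 alone. With 2 arrays a group, fewer samples enter the fit; otherwise the cause was not tested. With the replicate block the count was 3 lysosomal genes (Tpp1, Ctsl and Gaa) and 175 genes in all. Same-numbered arrays had correlations of their deviations from the group means between -0.153 and 0.157, and 2 of 8 arrays correlated best with their own number. No pairing by number was seen in these values, which cannot show that the samples were unpaired. With the term for the replicate set, which holds what replicates 3 and 4 share against replicates 1 and 2 in both genotypes, 6 lysosomal genes were called. The 16 genes given array by array for their unadjusted p kept their sign under every alternative run. Where every probe set was tested, only each gene's brightest was read for this, and the other Scarb2 probe set gave 0.08. The number of arrays limits what can be called: changes of the size seen for Lamp1 (0.46) and Clcn6 (0.44) lay close to the threshold. The core motif count was 15 genes also within the 250 bases before the start alone.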
